A study of Mus musculus with 6 samples.

Results

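The nuclear genes of mitochondrial oxidative phosphorylation were followed across livers of 2 genotypes of Mig-6. They were taken as all genes whose only annotated symbol starts with Nduf (complex I), Sdha, Sdhb, Sdhc or Sdhd (complex II), Uqcr (complex III), Cox4, Cox5, Cox6, Cox7 or Cox8 (complex IV) or Atp5 (complex V). The rule found 94 of the 18193 genes with such a probe set: 44 in complex I, 8 in complex II, 8 in complex III, 17 in complex IV and 17 in complex V. The prefixes also take in 12 assembly factors, which help build complexes I and II without staying in them, and 8 isoforms known mainly from other tissues. Of the 94 genes, 89 were bright enough to be tested, among 13718 genes tested in all.

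The arrays, 6 in number, held liver RNA of male mice aged 8 weeks. The mice were on a mixed background and a standard chow diet, and were taken after a fast of 24 h. The genotype was Mig-6 f/f on 3 arrays and Mig-6 d/d on the other 3. Mig-6, encoded by Errfi1, is induced by growth factor signalling and in turn dampens the receptors of the EGFR family. How the d/d genotype was made, which part of Errfi1 it affects and in which cells are not given in the sources used here. The labels do not say that each array is a separate animal, so p-values measure only the spread between these samples.

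In oxidative phosphorylation, complexes I and II pass electrons from NADH and succinate to ubiquinone, complex III passes them on to cytochrome c, and complex IV passes them to oxygen. Complexes I, III and IV pump protons across the inner mitochondrial membrane, and complex V, the ATP synthase, uses their return to make ATP. In the fasted liver this machinery oxidizes the products of fatty acid breakdown and supplies the ATP that gluconeogenesis uses. Most subunits are encoded in the nucleus and a few of the catalytic ones in mitochondrial DNA, and the latter have no named probe set among those used here (0 of 13 listed).

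Respiratory genes share promoter motifs for the factors NRF1, GABPA, YY1 and ERRalpha. RefSeq promoters of 300 bases (GRCm38.p6, 250 bases before and 50 after the start) were matched to 78 of the 94 genes, as 83 promoters. The NRF1 letters GCATGCGC, read on both strands, stood in 13.3% of these promoters and in 2.71% of all 32851 promoters in the table. The GABPA letters CCGGAAG stood in 26.5% against 8.86% of all, and the YY1 letters AAGATGGC in 12.0% against 2.75%. The ERRalpha letters TCAAGGTCA stood in 2.41% against 0.423%. At least 1 of the 4 motifs was found in 37 of the 83 promoters (44.6%) and in 13.7% of all. A match describes the sequence only and was not tested as a site.

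The 250 bases before the start are shown for 3 subunits of complex IV, because they place a liver-bright gene with motifs of 2 factors beside a common isoform and its testis-type counterpart. Capitals mark motif matches, and each sequence runs 5′ to 3′ on the strand of the gene. In Cox6a1 the first run of capitals is a pair of NRF1 matches, 1 on each strand, which overlap and start 162 and 160 bases before the start. Its second run is a GABPA match on the opposite strand from 16 bases before the start. Cox6b1 has a GABPA match on the opposite strand from 28 bases before the start, and Cox6b2 has no match to the 4 motifs in its window.
Cox6a1, chr5:115348959-115349208, minus strand: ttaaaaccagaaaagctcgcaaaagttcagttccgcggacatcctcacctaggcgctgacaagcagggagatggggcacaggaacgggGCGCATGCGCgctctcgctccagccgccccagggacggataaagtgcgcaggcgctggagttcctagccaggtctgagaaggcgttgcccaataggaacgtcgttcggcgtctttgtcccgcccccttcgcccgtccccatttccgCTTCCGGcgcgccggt
Cox6b1, chr7:30626115-30626364, minus strand: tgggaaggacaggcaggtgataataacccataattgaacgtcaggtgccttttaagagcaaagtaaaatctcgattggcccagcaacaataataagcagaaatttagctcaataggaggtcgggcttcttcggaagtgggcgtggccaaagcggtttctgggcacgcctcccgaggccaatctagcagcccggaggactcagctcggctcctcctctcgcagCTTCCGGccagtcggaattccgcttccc
Cox6b2, chr7:4753095-4753344, minus strand: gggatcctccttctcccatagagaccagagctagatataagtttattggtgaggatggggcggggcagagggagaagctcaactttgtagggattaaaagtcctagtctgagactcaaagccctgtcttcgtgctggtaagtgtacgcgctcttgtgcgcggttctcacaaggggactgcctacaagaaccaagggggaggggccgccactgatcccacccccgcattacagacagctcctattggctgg

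The targeted gene followed its label. Errfi1 read 5371, 5424 and 5686 in the f/f arrays and 68.0, 61.8 and 59.6 in the d/d arrays. All differences are given as log2(intensity + 16) in d/d less that in f/f, after normalization. That of Errfi1 was -6.10 ± 0.10 (standard error of limma, n = 3 per group, adjusted p = 5.07e-08 by limma with Benjamini-Hochberg adjustment). The f/f replicate 3 array stood apart. The control probe sets for 18S ribosomal RNA read 3807 on average there and 218 to 455 on the other 5. It correlated with the rest at 0.963 on average, below the 0.978 to 0.981 of the others. All 5 hepatocyte markers (Alb, Apoa1, Ttr, Tat and Cps1) were above the dim filter, with summed intensities of 109106 to 111261 in f/f and 109513 to 111026 in d/d. Of these, 1 was higher and 4 were lower in d/d. Of 7 striated muscle markers, Acta1, Ckm, Myh4 and Myh7 were above the filter and Tnnt3, Mb and Actn3 under it, and of 4 adipocyte markers Fabp4 and Ucp1 were above and Adipoq and Cidea under it. Kupffer cell markers were lower in d/d for 6 of 7 genes (summed intensity 1724 to 2353 in f/f, 1471 to 1950 in d/d). Endothelial markers were higher for 3 and lower for 2 (947 to 988 in f/f, 902 to 1092 in d/d). Of the cholangiocyte markers above the filter, 1 was higher and 1 lower, and of the erythroid ones 2 of 2 were lower. Stellate cell markers were lower for 4 of 5 (2694 to 3128 against 2099 to 2500) and lymphocyte markers for 4 of 4 (317 to 565 against 297 to 360), and 0 genes of the marker lists passed the test. The part of these cells in the values below was not tested, and in whole liver fewer cells of a type and less RNA per cell cannot be told apart.

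Transcripts of the respiratory chain and ATP synthase differed little between the genotypes. Of the 89 genes tested, 0 passed limma with Benjamini-Hochberg adjustment at an adjusted p of 0.05, and 0 had an unadjusted p under 0.05. Over all genes tested, 0.0948% passed the adjusted threshold and 7.84% had an unadjusted p under 0.05. Differences ran from -0.19 for Ndufs4 to 0.31 for Ndufaf6, with 40 genes higher and 49 lower in d/d (55.1% lower, against 53.6% of all genes tested). The median difference was -0.0051, beside -0.015 over all genes tested.

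The differences also lay close together. Their standard deviation over the 89 genes was 0.091, against 0.23 over all genes tested. The median absolute difference was 0.067 against 0.11. By the probe set that stood for it, no member differed by more than 1.25-fold, a size that 9.77% of all genes tested exceeded. This bound was chosen after the differences were seen, and Ndufaf6 lay just inside it at 1.24-fold. Some other probe sets of members above the filter passed it, such as those of Sdhd (0.50), Atp5a1 (-0.34) and Ndufab1 (-0.33). Respiratory transcripts are bright, so the same figures were taken over the 465 genes at or above the members' median level, which include members. There the median absolute difference was 0.10 and 15.1% exceeded 1.25-fold, although the median standard error was 0.11 in either group. The gap between members and other genes is a description and was not tested.

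The intervals show which changes these 6 arrays could still hide. The 95% interval of limma lay within 1.5-fold on either side for 87 of 89 members (97.8%), against 77.4% of all genes tested and 81.9% of the bright genes. The exceptions were Ndufaf6 (-0.21 to 0.83), an assembly factor, and Ndufb1 (-0.34 to 0.62), a small accessory subunit of complex I. Both read lowest in f/f replicate 3. The interval lay within 1.25-fold for 40 members, so changes past 1.25-fold remained possible for the other 49.

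**Figure D1:**
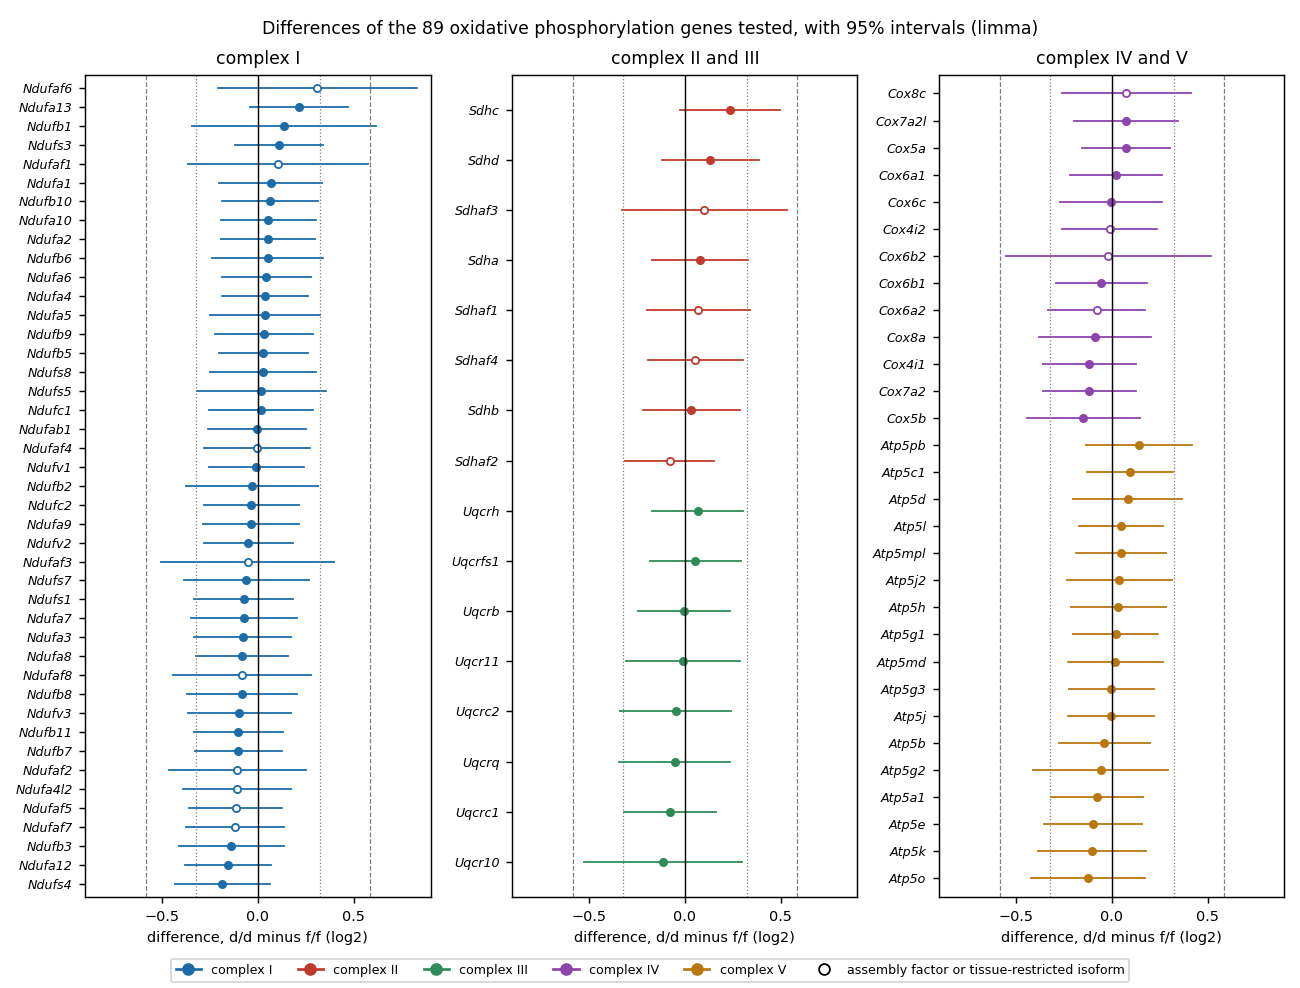
Difference in level, d/d minus f/f in log2 units, of the 89 genes tested, by complex, with 95% intervals of limma as lines (n = 3 per group). Dotted and dashed lines mark 1.25-fold and 1.5-fold, filled points are common subunits and open points assembly factors or tissue-restricted isoforms; every interval crosses 0, and Ndufaf6 and Ndufb1 reach past 1.5-fold.

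Complex by complex, the medians stayed near 0. The median difference was -0.031 in complex I (18 higher, 25 lower), 0.076 in complex II (7 and 1), -0.029 in complex III (2 and 6), -0.019 in complex IV (4 and 9) and 0.019 in complex V (9 and 8). Complex II was the one whose median kept its sign under each scaling and with each array left out in turn (0.037 to 0.11). The median of complex V turned to -0.018 on the deposited scale. Without d/d replicate 2 that of complex I was 0.043, and without f/f replicate 3 that of complex III was 0.019 and that of complex IV 0.0025.

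In the median of the members, arrays of 1 genotype differed from each other more than the genotypes did. Relative to each gene's mean over the arrays, the median of the 89 genes was 0.041, -0.040 and 0.015 in f/f replicates 1 to 3 and 0.022, -0.057 and 0.030 in d/d replicates 1 to 3. The genotype means of these values differed by -0.0069, and their within-group SD was 0.045 (n = 3 per group). In f/f replicate 3 the complexes parted: complex II stood at -0.14 and complex IV at 0.12. That array held the highest or lowest value of 61.8% of the members, of 65.7% of all genes tested and of 43.4% of the 465 bright genes. Its part in these medians is given by the values without it.

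**Figure D2:**
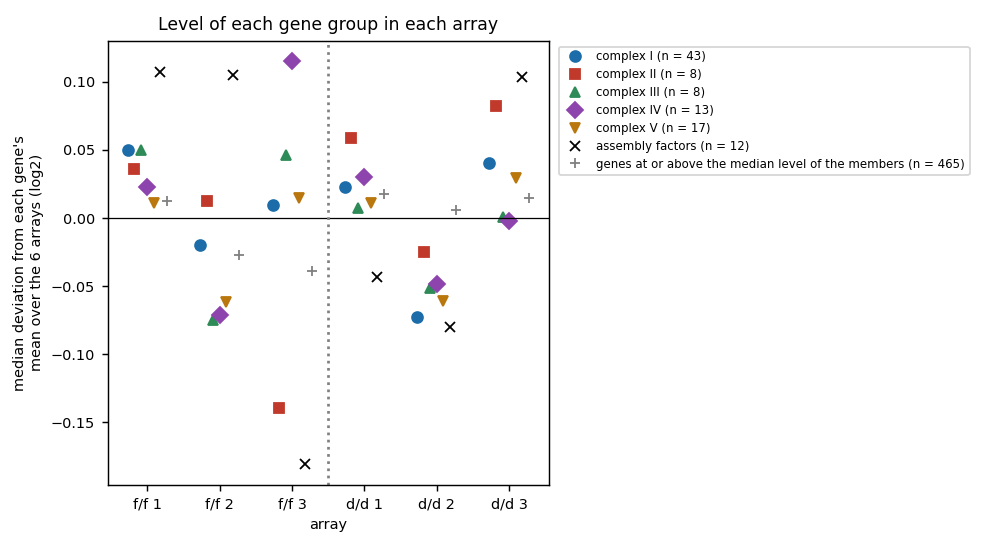
Median deviation (log2) of each complex, of the 12 assembly factors and of the 465 bright genes from each gene's mean over the 6 arrays, by array. Assembly factors and complex II are lowest in f/f replicate 3, where complex IV is highest.

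Complex I carries a catalytic core of conserved subunits inside a shell of accessory ones. The 6 core subunits encoded here had a median of -0.029 (2 higher, 4 lower) and the 28 accessory ones tested a median of 0.0063 (14 and 14). Both medians changed sign without f/f replicate 3, to 0.011 and -0.035. Ndufb9, an accessory subunit, was at 0.031, turning to -0.012 as deposited. Ndufs3, a core subunit of the ubiquinone-facing arm, read 2295, 2245 and 2051 in f/f and 2267, 2296 and 2343 in d/d. Its groups overlapped on the deposited scale and were apart after normalization, with d/d higher by 0.11 ± 0.10 (SE, n = 3 per group), and by 0.070 without f/f replicate 3.

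Ndufa13, also known as GRIM-19 and needed for complex I assembly, read 3541, 3071 and 3326 in f/f and 3806, 3504 and 3991 in d/d. The lowest d/d array lay below the highest f/f array, and after normalization the groups were apart. The difference was 0.21 ± 0.11 (adjusted p = 0.721, limma with Benjamini-Hochberg adjustment, n = 3 per group), a fold of 1.16. It stayed between 0.16 and 0.27 under every alternative. Ndufa13 has 1 probe set, which may cross-hybridise by its design class, so the alternatives on probe sets could not change this difference.

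Ndufs4, an accessory subunit whose loss causes Leigh syndrome, read 835, 849 and 981 in f/f and 751, 776 and 795 in d/d. Every d/d array was below every f/f array, and f/f replicate 3 was the highest. The difference was -0.19 ± 0.11 (adjusted p = 0.760, limma with Benjamini-Hochberg adjustment, n = 3 per group), and -0.12 without f/f replicate 3. Another probe set of Ndufs4 pointed the other way at 0.18, with its lowest value (145) in the same array. Ndufa12, a neighbour of Ndufs4 within the complex, read 2120, 2015 and 2027 in f/f and 1808, 1870 and 1758 in d/d. The groups were apart, by -0.15 ± 0.098 (SE, n = 3 per group), but the probe set used may cross-hybridise by its design class. The 4 probe sets of Ndufa12 ran from -0.15 to 0.062. The one at 0.062 read 46.1 to 67.5, close to the dim filter at an intensity of 48.4. The others were lower in d/d, at -0.15, -0.067 and -0.040.

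Complex II, which also serves the citric acid cycle, has 4 subunits, all encoded in the nucleus. All 4 were higher in d/d, by 0.034 to 0.24, and 0 passed. Sdhc, a membrane anchor, had the lowest p of the 89 genes. It read 669, 582 and 551 in f/f and 687, 744 and 688 in d/d, with means of 601 ± 61.1 and 706 ± 32.5 (SD, n = 3). Every d/d array was above every f/f array. The difference was 0.24 ± 0.11, a fold of 1.18 (unadjusted p = 0.072, adjusted p = 0.689, limma with Benjamini-Hochberg adjustment). The other probe set of Sdhc gave 0.048, and alternatives ran from 0.14 to 0.32.

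Sdhd, the other membrane anchor, read 2072, 2134 and 1806 in f/f and 2287, 2068 and 2141 in d/d, and the groups overlapped. Its difference was 0.13 ± 0.11 (SE, n = 3 per group), and 0.072 without f/f replicate 3. Its other probe set above the filter gave 0.50, and read 63.5 in f/f replicate 3. Sdha, the flavoprotein that binds succinate, had a difference of 0.080 and Sdhb, the iron-sulfur subunit, one of 0.034, which was -0.013 on the deposited scale. The assembly factors Sdhaf1, Sdhaf3 and Sdhaf4 stood at 0.071, 0.10 and 0.055 and Sdhaf2, which attaches flavin to Sdha, at -0.078. Without f/f replicate 3, Sdhaf1 was -0.012 and Sdhaf3 -0.12.

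Complex III had the narrowest range of differences among the 5 complexes. Uqcrb, a ubiquinone-binding subunit, read 9675, 9254 and 8774 in f/f and 8986, 8657 and 9655 in d/d, a difference of -0.0051. Uqcrq, another small subunit, read 3653, 3311 and 4149 in f/f and 3773, 3167 and 3404 in d/d, a difference of -0.052. Both pairs of groups overlapped. Uqcrh, the hinge protein that meets cytochrome c1, was highest at 0.066. Uqcr10, a small subunit, was lowest at -0.11: it read 2326, 2035 and 3268 in f/f and 2323, 2297 and 2129 in d/d. The f/f replicate 3 array alone was high, and without it the difference was 0.092.

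In complex IV the 9 common isoforms tested had a median of -0.054 (3 higher, 6 lower), and of 0.0025 without f/f replicate 3. Cox7a2l, at 0.075 (0.17 without f/f replicate 3), was counted among them. Cox4i1, the subunit through which ATP inhibits the enzyme, read 6408, 6161 and 6359 in f/f and 5840, 5444 and 5946 in d/d. All d/d arrays were below all f/f arrays as deposited and overlapped them after normalization, with a difference of -0.12 ± 0.11 (SE, n = 3 per group). Cox5b was lowest at -0.15, and its 5 probe sets were all lower, from -0.20 to -0.020. Cox5a read 4137, 4294 and 3897 in f/f and 4224, 4299 and 4167 in d/d, overlapping as deposited. After normalization it was 0.073 higher with the groups apart, and 0.028 higher without f/f replicate 3. The 3 probe sets of Cox5a ran from -0.018 to 0.073.

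The isoform pairs of complex IV let liver-type and other forms be read side by side, each against its own f/f level. Cox6a1 had a difference of 0.023, turning to -0.037 as deposited, and Cox6b1 one of -0.054. The other probe set of Cox6a1 gave -0.22. Cox7a2 was at -0.12 and Cox8a at -0.089, the latter turning to 0.017 without f/f replicate 3. Of the 8 tissue-restricted isoforms, 5 were tested and had a median of -0.019. Cox4i2, the lung form, read 52.1, 52.2 and 58.9 in f/f and 58.2, 57.7 and 43.9 in d/d, close to the dim filter at an intensity of 48.4. Cox6a2, a muscle form, was at -0.077 and Cox8c, a testis form, at 0.077, or 0.16 without f/f replicate 3. The muscle forms Cox7a1 and Cox8b and the testis form Cox7b2 fell under the filter, with readings of 17.8 to 49.6 over the 6 arrays.

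Cox6b2, the testis form whose promoter is shown above, read 178, 142 and 304 in f/f and 167, 215 and 210 in d/d. The groups overlapped, and the highest value came from f/f replicate 3. The difference was -0.019 ± 0.23 (SE, n = 3 per group) with that array and 0.26 without it. Ndufa4, now counted by many as a subunit of complex IV, was at 0.037 (-0.00079 as deposited) and its hypoxia-induced counterpart Ndufa4l2 at -0.11. Moving both genes to complex IV left its median at -0.019.

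The other genes under the filter were Cox7c, a common subunit of complex IV, and Ndufb4, an accessory subunit of complex I. All their probe sets used here lay under it, and whether these report the level of the transcript was not tested. Cox7c read 46.5, 35.3 and 37.5 in f/f and 50.9, 47.6 and 50.3 in d/d. Every d/d array was above every f/f array, but the readings lay near the filter and entered no test. Ndufb4 read 21.2 to 28.3. A further 10 probe sets name a member together with other symbols and were not used.

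Complex V, the ATP synthase, has an F1 head that makes ATP on a membrane part, Fo, with a peripheral stalk. The 5 F1 genes had a median of -0.038 and the 12 Fo and stalk genes one of 0.019. Atp5b, the catalytic beta subunit, read 6585, 6257 and 6578 in f/f and 6023, 5913 and 6310 in d/d, a difference of -0.038 ± 0.10 (SE, n = 3 per group). Atp5g3, which codes for the rotating c subunit, read 7727, 7797 and 7923 in f/f and 7330, 7425 and 7753 in d/d, a difference of -0.0032. The d/d arrays of both genes lay mostly lower as deposited, and overlapped the f/f arrays.

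Atp5c1, the gamma subunit that turns inside the F1 head, read 4405, 4393 and 4305 in f/f and 4573, 4494 and 4624 in d/d. It was apart on either scale, with the groups at 4368 ± 54.5 and 4564 ± 65.5 (SD, n = 3). The difference was 0.096 ± 0.098 (adjusted p = 0.852, limma with Benjamini-Hochberg adjustment). Of the stalk genes, Atp5pb was highest at 0.14 and Atp5o, also called OSCP, lowest at -0.12. Atp5pb was -0.030 by its other probe set and 0.060 without f/f replicate 3, and Atp5o was -0.0079 without f/f replicate 3.

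The groups were apart after normalization for 7 members. Sdhc, Ndufa13, Ndufs3, Atp5c1 and Cox5a were higher in d/d in every array (5 of 89, 5.62%), where the share over all genes tested was 7.86%. Ndufs4 and Ndufa12 were lower in every d/d array (2 of 89, 2.25%), against 6.82% of all genes tested. As deposited 2 were higher, Atp5c1 and Sdhc (2.25%, against 7.52% of all genes tested). On that scale 7 were lower: Cox4i1, Cox6b1, Cox7a2, Ndufa12, Ndufb11, Ndufb7 and Ndufs4. The direction of such counts therefore moved with the scaling, and each share lay near or below that of all genes, except the 7.87% lower as deposited against 6.62% of all genes.

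**Figure D3:**
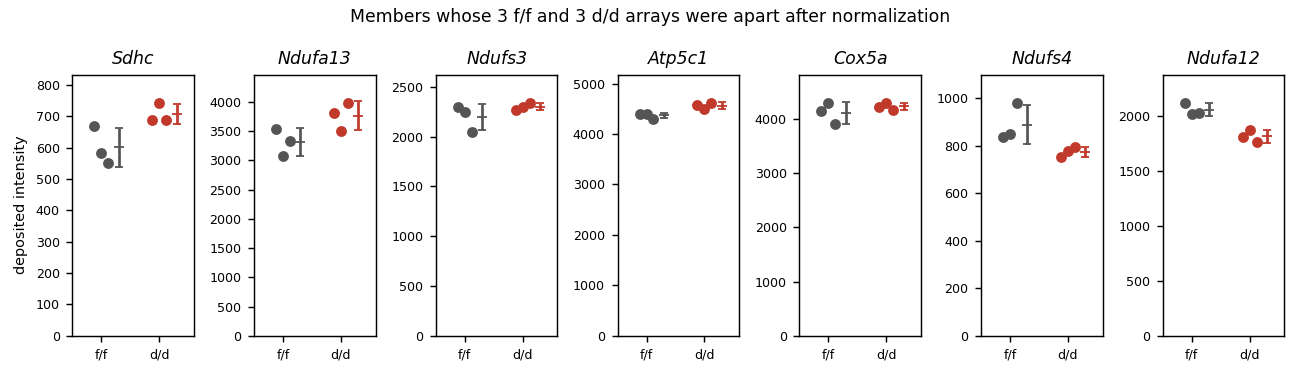
Deposited intensity in each array of the 7 genes whose f/f (grey) and d/d (red) arrays did not overlap after normalization, with mean ± SD (n = 3) beside the points and axes from 0. The means of Sdhc are 601 in f/f and 706 in d/d and those of Ndufs4 are 888 and 774, while Cox5a, Ndufs3 and Ndufa13 still overlap on this scale.

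The 12 assembly factors had a median of -0.029 (5 higher, 7 lower). The SD of their differences was 0.13, against 0.086 for the 72 common structural subunits tested. They moved with f/f replicate 3: their median deviation was 0.11 and 0.11 in f/f replicates 1 and 2, -0.18 in f/f replicate 3, and -0.043, -0.080 and 0.10 in the d/d arrays. Without that array their median was -0.11. Ndufaf6, which acts early in complex I assembly, read 136, 135 and 78.5 in f/f and 145, 125 and 157 in d/d. Its difference, the highest of the 89 at 0.31 ± 0.23 (adjusted p = 0.803, limma with Benjamini-Hochberg adjustment, n = 3 per group), was 0.035 without f/f replicate 3.

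Ndufaf1 had a difference of 0.10, turning to -0.14 without the same array. Ndufaf2, a paralog of Ndufa12 that takes its place during assembly, read 362, 332 and 256 in f/f and 264, 275 and 328 in d/d. Its difference of -0.11 widened to -0.26 without f/f replicate 3 (adjusted p from 0.348 to 0.999 over all alternatives, limma with Benjamini-Hochberg adjustment). Ndufaf3, Ndufaf4, Ndufaf5, Ndufaf7 and Ndufaf8 lay between -0.12 and -0.0045, and Ndufaf8 turned to 0.085 without that array.

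**Figure D4:**
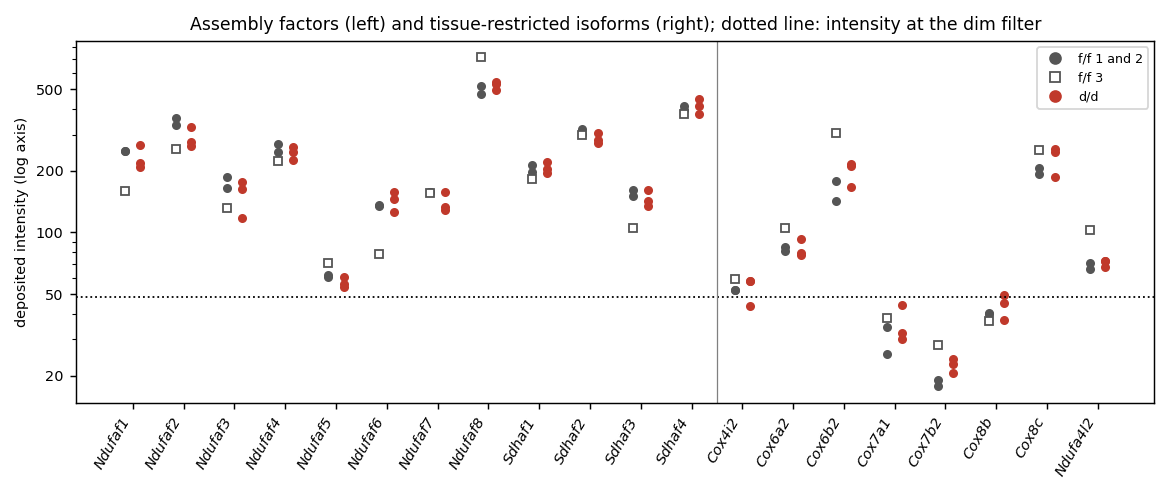
Deposited intensity (log axis) of the 12 assembly factors and 8 tissue-restricted isoforms in each array, f/f in grey with f/f replicate 3 as an open square, d/d in red. The dotted line is the intensity of 48.4 at the dim filter; f/f replicate 3 lies apart for Ndufaf1, Ndufaf6 and Cox6b2, and levels of different genes are not compared.

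Where a gene had several probe sets above the filter, they often disagreed in sign. Of 47 such members, 16 had all probe sets lower, 9 all higher and 22 of mixed sign. The widest range was 0.47, for Atp5a1, the alpha subunit of F1, whose probe sets ran from -0.34 to 0.12. The probe set at -0.34 read 224 in f/f replicate 3 and 70.4 to 114 elsewhere. None of the 166 probe sets of members above the filter differed by more than 1.5-fold.

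Genes around the complexes were read from lists of their own. Of 16 carriers and subunits that the prefixes miss, 1 had an unadjusted p under 0.05: Coq3, a methyltransferase of ubiquinone synthesis, higher by 0.43 ± 0.14 (adjusted p = 0.450, limma with Benjamini-Hochberg adjustment, n = 3 per group). Cyc1, the cytochrome c1 subunit of complex III (-0.013), and Cycs, cytochrome c (-0.088), were among the others. Of 30 other assembly factors, Tmem126b was higher by 0.43 ± 0.14 and Ecsit, its partner in complex I assembly, lower at -0.25 ± 0.10 (adjusted p of 0.450 and 0.596, limma with Benjamini-Hochberg adjustment, n = 3 per group). Without f/f replicate 3 Tmem126b was at 0.28.

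The 19 regulators of respiratory genes, with a median of 0.0067 (-0.069 without f/f replicate 3), had 0 under an unadjusted p of 0.05. Among the factors whose motifs are given above, Nrf1 stood at -0.049, Gabpa at 0.026 and Esrra at 0.0067. Without f/f replicate 3 they stood at -0.18, -0.20 and 0.11. Yy1, the other of these factors, is among the 19 regulators, and its value is not given singly. The coactivator Ppargc1a, which rises in the fasted liver, read 93.0, 114 and 96.3 in f/f and 71.4, 77.4 and 97.7 in d/d. The groups overlapped, with a difference of -0.25 ± 0.16 (adjusted p = 0.783, limma with Benjamini-Hochberg adjustment, n = 3 per group). Tfam, which packages mitochondrial DNA, was at 0.20, and at 0.078 without f/f replicate 3.

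The citric acid cycle feeds complexes I and II, and 2 of its genes were lower in d/d by more than any member. Fh1, fumarate hydratase, which takes up the fumarate that complex II makes, read 2713, 3347 and 2863 in f/f and 1784, 2106 and 1894 in d/d. All d/d arrays were lower, by -0.60 ± 0.12 (adjusted p = 0.161, limma with Benjamini-Hochberg adjustment, n = 3 per group). Idh3a, a subunit of the NAD-dependent isocitrate dehydrogenase, read 552, 542 and 495 in f/f and 381, 387 and 414 in d/d. Its difference was -0.41 ± 0.10 (adjusted p = 0.271, limma with Benjamini-Hochberg adjustment, n = 3 per group). Over the alternatives the adjusted p of limma ran from 0.0214 to 0.684 for Fh1 and from 0.0331 to 0.854 for Idh3a, and both passed with array weights, which count f/f replicate 3 for less. These 2 were the only ones of the 16 genes under an unadjusted p of 0.05, and the median of the list was -0.0036, or -0.13 without f/f replicate 3.

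The remaining lists cover mitochondrial carriers and ribosomes. The 8 genes of adenine nucleotide exchange and uncoupling had a median of -0.023 (0.018 without f/f replicate 3) and 0 under an unadjusted p of 0.05. The 76 mitochondrial ribosomal proteins, which translate the subunits encoded in mitochondrial DNA, had a median of -0.032 (27 higher, 49 lower; -0.063 without that array) and also 0. The 39 cytosolic ribosomal proteins had a median of 0.053 (30 higher, 9 lower), with Rpl7 (0.26) and Rps4x (0.24) higher and Rps4l (-0.51) lower at an unadjusted p under 0.05. In limma with Benjamini-Hochberg adjustment 0 genes of these 7 lists passed.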

How the data were processed

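Per the labels, biotin-labelled total RNA from liver was read on Affymetrix arrays. The values the authors deposited are linear intensities for 45101 probe sets on 6 arrays; their summary method and scaling are not given in the sources used here. Probe sets were named through the platform annotation: 34945 had 1 symbol, 932 several and 9160 none, besides 64 controls. The authors' intensities were taken as log2(intensity + 16) and quantile normalized without controls. The probe set with the highest mean stood for each gene, and the lowest 40% by mean were left out. Genotypes were compared with limma 3.58.1 in R 4.3.3 (lmFit, eBayes, no covariates; prior and residual degrees of freedom 4.18 and 4), with Benjamini-Hochberg adjustment over the 13718 genes tested and a threshold of 0.05. The fit was tested on simulated data. Tables and figures used pandas 2.3.3 and matplotlib 3.10.9 in Python 3.11.15.

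The members, gene lists and motifs were chosen with earlier results of these data known, and the bounds of 1.25-fold and 1.5-fold after the differences were seen. By rule, the text names in each complex the 2 brightest members and those with the highest and lowest difference, all of complex II, the assembly factors, the tissue-restricted isoforms with their common partners, Errfi1, and listed genes with an unadjusted p under 0.05; other genes were picked after their values were seen. Replicate numbers were not used to pair the samples, as the labels do not say what they mark. The deviations of same-numbered arrays correlated at -0.0032, -0.14 and -0.47. With 3 arrays per group, such values cannot decide whether these arrays share a litter, batch or day. Alternatives covered scaling, pseudocounts of 1 and 64, the dim filter, the probe set, the variance model, array weights, the replicate block, each array left out and the threshold. Outliers within groups were not sought, as this needs at least 4 samples. The number of arrays, 3 per group, limits the precision.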

Additional observations from a re-analysis of the deposited data

How the results depend on the processing

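The absence of a member past the threshold held in limma under each of the alternatives run. Unadjusted p-values under 0.05 appeared for Ndufa13 and Sdhc with a pseudocount of 64, Ndufa13 with a variance trend, Ndufaf2 with array weights or without f/f replicate 3, and Sdhc without f/f replicate 1. A member passed 1.25-fold in some: Ndufaf6 with a pseudocount of 1 and without any 1 of f/f replicates 1 and 2 and d/d replicate 2, and Ndufab1 with probe sets of other design classes. The count of genes called over the whole array moved more: 13 became 20 with the mean of all probe sets, 23 with a variance trend, 214 with array weights, 21 at an adjusted p of 0.1, and, with 1 array left out, 4 to 91. The lowest came from leaving out d/d replicate 1 and the highest from leaving out f/f replicate 3. With the replicate number as a block it was 1, with 0 members called, and the block changed no other call of a member. Numbers alone tie these samples, so the block is a check and not a pairing. The median of complex I ran from -0.049 to 0.043 with 1 array left out, and that of complex III was 0.027 with array weights. The cause of these shifts was not tested.

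Signs under each setting are given for the members named by rule or in the text. With array weights, the sign turned for Atp5g3 (0.0040), Cox4i2 (0.0085), Cox6b2 (0.18), Cox8a (0.0014), Ndufaf1 (-0.13), Ndufaf8 (0.069), Sdhaf1 (-0.018), Sdhaf3 (-0.10), Uqcr10 (0.076), Uqcrq (0.036). With probe sets ending in _x_at or _s_at used only where a gene had no other, the sign turned for Atp5pb (-0.030), Ndufa12 (0.062). Genes with no other probe set, such as Ndufa13, could not change in that setting. Atp5c1 left the test there, as its other probe set lay under the filter. The probe set of Ndufa12 in that setting read close to the dim filter. With intensities as deposited, the sign turned for Cox6a1 (-0.037), Ndufa4 (-0.00079), Ndufb9 (-0.012), Sdhb (-0.013). With arrays shifted to a common median, the sign turned for Cox6a1 (-0.016), Cox6b2 (0.0063), Ndufaf4 (0.0096). With the mean of all probe sets, the sign turned for Cox6a1 (-0.098), Cox8c (-0.00055), Ndufaf4 (0.096), Ndufb9 (-0.024), Sdhaf2 (0.054), Uqcrb (0.040). With 1 array left out, the differences of named members whose sign turned ran from lowest to highest as follows: Atp5b -0.078 to 0.0026, Atp5g3 -0.029 to 0.016, Cox4i2 -0.059 to 0.064, Cox6a1 -0.015 to 0.077, Cox6b1 -0.086 to 0.0047, Cox6b2 -0.23 to 0.26, Cox8a -0.19 to 0.017, Ndufaf1 -0.14 to 0.22, Ndufaf3 -0.23 to 0.12, Ndufaf4 -0.086 to 0.065, Ndufaf8 -0.20 to 0.085, Ndufb9 -0.048 to 0.082, Sdhaf1 -0.012 to 0.14, Sdhaf3 -0.12 to 0.23, Sdhb -0.040 to 0.085, Uqcr10 -0.27 to 0.092, Uqcrb -0.047 to 0.048, Uqcrq -0.13 to 0.026. Signs of members not named by the rule also turned, such as Atp5g2 (0.11), Cox6c (0.051), Ndufs7 (0.047) and Ndufs8 (-0.049) without f/f replicate 3. These genes were not called in any setting, so their signs rest on differences within the spread of the arrays. Probe sets near the filter, 3 arrays per group and 1 array that stands apart limit what can be read from single members.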
